A study of Mus musculus with 9 samples.

Results

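The collagen gene family was described in mouse back skin treated with imiquimod, with and without mechanical stretch. Its members were all rows of the deposited table whose platform gene symbol has the form Col, a number, a and a number. The rule used names alone and gave 42 rows for 42 genes, out of 19505 named genes on the arrays. Col7a1, Col12a1 and Col21a1 belong to the same nomenclature and were not analysed here.

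All samples came from C57BL/6J mice of 8 weeks whose back hair had been removed and whose skin received 5% imiquimod cream daily for 7 days. Imiquimod activates a Toll-like receptor and produces a psoriasis-like dermatitis in mice. In the 5 stretch samples (full-stretch, IMQ+F) a glued plastic traction device was elongated by 10 mm on the first day, and the 4 no-stretch samples (IMQ+N) were not stretched. Total RNA of whole skin was measured on Affymetrix arrays as log2 expression, so a difference of 1 is a 2-fold difference. The labels do not say whether non-stretched skin carried the device, nor that every sample came from its own mouse. The tests therefore rest on the variation among these arrays, which may be technical. No array without imiquimod was analysed here. The series compares the transcriptomes of stretched and non-stretched inflamed skin.

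Collagens are proteins of the extracellular matrix built from 3 chains wound into a triple helix. Fibrillar collagens, mainly types I and III with V in the dermis, form the tensile fibrils of skin and are made largely by fibroblasts. Type IV forms the sheet of basement membranes beneath the epidermis and around vessels, fat cells and muscle fibres, fibril-associated collagens decorate fibril surfaces, and type VI forms beaded filaments between fibrils and cells.

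The 9 arrays were similar in scale, with medians over the named genes between 5.96 and 6.063 on the log2 scale. Across genes, no-stretch replicate 3 resembled the others least (median correlation 0.9749, against up to 0.9873), and limma weighted this array and stretch replicate 1 lowest. Markers of skin were present at high level: Krt14 and Krt5, keratins of basal keratinocytes, and Dcn (decorin) and Vim (vimentin), both expressed by fibroblasts, had means at percentile 99.6 or above among all genes. Levels of different collagens were not set against each other, because probes of different genes respond differently. The mean of 38 of the 42 collagens lay above the 25th percentile of all genes, and that of 21 above their median.

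Most collagen genes had an unadjusted p of 0.05 or more, which does not show that they were unchanged. The lower ones, at an unadjusted p under 0.05, were 7 genes of the dermal collagens I, V and VI and of the fibril-associated collagen XIV. Apart from Col6a6, which was low in the table, they were 1.47-fold to 2.14-fold lower in stretched skin. The genes of the general basement membrane chains, Col4a1 and Col4a2, and of collagen XVIII were 1.48-fold to 1.79-fold higher. The difference between classes was not tested. Of the 42 collagens, 30 had a negative and 12 a positive log2 change, and the median change was -0.07, against -0.003 over all genes. Of them, 1 gene (Col6a2) passed limma's moderated test after Benjamini-Hochberg adjustment over all genes at 0.05. Among all genes 0.164% passed as lower and 0.0820% as higher, 0.246% in all. At an unadjusted p under 0.05, 7 of 42 collagens (16.7%) were lower, against 6.07% of all genes, and 3 of 42 (7.14%) were higher, against 6.92% of all genes (13.0% in either direction). The share on the higher side was thus close to that of all genes. The lower genes were Col1a1, Col1a2, Col5a1, Col6a1, Col6a2, Col6a6 and Col14a1, and the higher genes were Col4a1, Col4a2 and Col18a1. All but Col6a6 lay above the median of all genes. In the fits that left out single arrays the counts stayed between 6 and 8 lower and between 2 and 3 higher. Of the lower genes 5 (Col14a1, Col1a1, Col1a2, Col6a2 and Col6a6) and 2 of the higher (Col4a1 and Col4a2) stayed under an unadjusted p of 0.05 in all 9 of them.

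**Figure D1:**
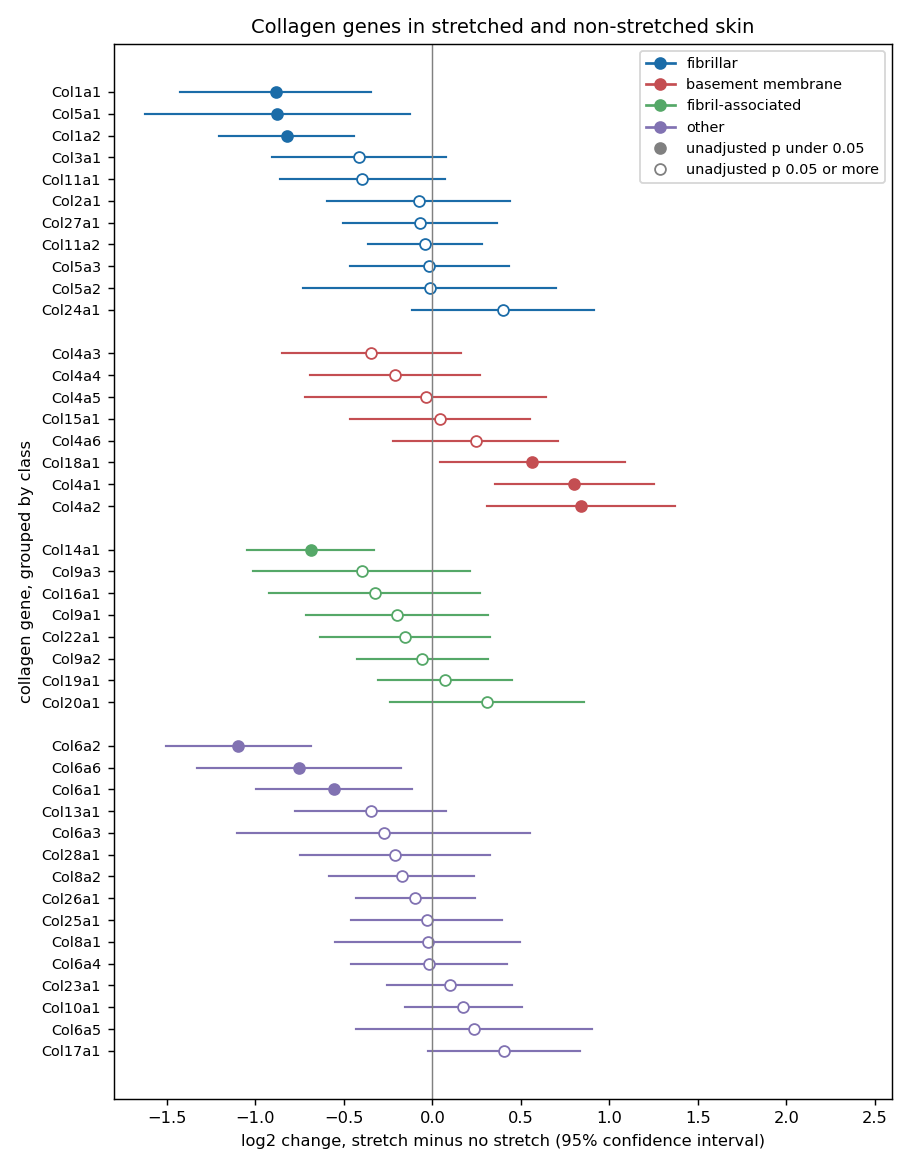
Log2 change (stretch minus no stretch, x axis) of the 42 collagen genes (y axis) with 95% confidence intervals of the limma fit, coloured by class; filled points have an unadjusted p under 0.05. The 3 filled basement membrane genes lie to the right of 0, and the 7 filled genes of the other classes lie to the left.

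Type I collagen, the heterotrimer that makes up most of the dermal fibril, was represented by both of its chains. Col1a1, which encodes the alpha 1 chain, was at 15.62, 15.68, 14.70, 15.55 and 14.82 on stretch replicates 1 to 5 and at 16.24, 15.77, 16.20 and 16.42 on no-stretch replicates 1 to 4. Col1a2, which encodes the alpha 2 chain, was at 15.15, 15.28, 14.73, 15.03 and 14.76 with stretch and at 15.74, 15.71, 15.70 and 16.11 without. For both chains every stretched array was below every non-stretched array, and stretch replicates 3 and 5 were the lowest. Col1a1 was 1.85-fold lower (log2 change -0.88, standard error 0.25, 95% confidence interval -1.42 to -0.34, limma adjusted p = 0.165). Col1a2 was 1.77-fold lower (log2 change -0.82, standard error 0.17, 95% confidence interval -1.20 to -0.44, limma adjusted p = 0.077). Neither passed over all genes; with array weights Col1a2 did (adjusted p = 0.041). Over the alternatives that left out 1 array the adjusted p of Col1a2 lay between 0.081 and 0.204.

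The letters around the start of Col1a2 are shown because this chain had the smallest p among the fibrillar collagens. They run from 250 bases before to 20 bases after the start in the RefSeq table of GRCm38.p6, at chr6:4505368-4505637 on the plus strand, written 5′ to 3′.
Col1a2: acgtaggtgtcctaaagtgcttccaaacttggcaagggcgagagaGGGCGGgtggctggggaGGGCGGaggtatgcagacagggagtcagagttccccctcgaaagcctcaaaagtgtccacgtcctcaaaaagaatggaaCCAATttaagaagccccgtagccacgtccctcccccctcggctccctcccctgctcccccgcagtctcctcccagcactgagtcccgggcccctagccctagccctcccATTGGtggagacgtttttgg
Capitals mark matches to motifs searched on both strands: CCAAT, the box bound by NF-Y; GGGCGG, the GC box bound by Sp1; TATAAA, the TATA box; TGANTCA, the AP-1 motif; and GGAATG, the TEAD motif. None of these motifs holds another. Col1a2 held CCAAT 109 bases before the start and again, on the opposite strand (ATTGG), at the start, and GGGCGG at 205 and 188 bases before it. Such matches are common: 35.4% of all 32851 start windows of this length held CCAAT and 34.1% held GGGCGG. Windows were at hand for 34 of the 42 collagens. Of their 37 windows, 12 held CCAAT (32.4%), 22 held GGGCGG (59.5%), 5 held TATAAA (13.5%, against 12.9% of all), 5 held GGAATG (13.5%, against 13.5%) and 1 held TGANTCA (2.7%, against 7.23%). A match describes letters and is not evidence of binding.

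Col3a1 encodes the only chain of type III collagen, which forms mixed fibrils with type I and is abundant in skin and healing wounds. It was at 17.99, 18.05, 17.11, 17.67 and 17.42 with stretch and at 17.90, 17.98, 17.89 and 18.48 without. The groups overlapped: stretch replicates 1 and 2 lay within the non-stretched range, while 3, 4 and 5 lay below it. The log2 change was -0.41 (95% confidence interval -0.90 to 0.08, limma adjusted p = 0.47), and -0.28 without no-stretch replicate 4. The change of Col1a1 was larger than that of Col3a1 by 0.47 on the log2 scale, with an exact two-sided permutation p of 0.024 over 126 splits of the arrays, and 0.083 adjusted over the 7 pairs of chains compared in this way. These pairs were chosen after values were seen. Probes of different genes respond differently, and their part in such differences was not tested.

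Type V collagen sits in the core of type I fibrils and limits their diameter. Its alpha 1 chain gene Col5a1 was at 6.72, 7.38, 6.62, 7.79 and 6.64 with stretch and at 8.56, 7.05, 7.64 and 8.37 without, with wide overlap. It was 1.83-fold lower (log2 change -0.87, 95% confidence interval -1.62 to -0.13, limma adjusted p = 0.31). The alpha 2 chain gene Col5a2, the neighbour of Col3a1 on chromosome 1, differed by -0.01 on the log2 scale (95% confidence interval -0.73 to 0.70), a value which turned positive after subtraction of array medians (0.02), without stretch replicate 2 (0.025) or 5 (0.286), without no-stretch replicate 4 (0.095) and with the replicate number as a block (0.286). Its stretched values ran from 9.0 in replicate 5 to 10.88 in replicate 1, the widest range of any fibrillar collagen. The alpha 3 chain gene Col5a3 had a log2 change of -0.02, positive after quantile normalization (0.075), median subtraction (0.015) and array weighting (0.01), and on omission of stretch replicate 3 (0.146) or of no-stretch replicate 1 (0.002) or 2 (0.007). The changes of Col5a1 and Col5a2 differed by 0.86, which the permutation test did not separate from the spread between arrays (exact p = 0.14, adjusted p = 0.25).

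The other 5 fibrillar genes are those of cartilage (Col2a1, Col11a1 and Col11a2) and of the minor types XXIV and XXVII. Col11a1 had a log2 change of -0.39 and Col24a1, the only positive one of the class, 0.40 (limma adjusted p = 0.47 and 0.51). Col2a1, Col11a2 and Col27a1 lay between -0.08 and -0.04. In all, 10 of 11 fibrillar genes were negative, with a median of -0.08. The median ranged from -0.29 (without no-stretch replicate 3) to -0.05 (without no-stretch replicate 1) when single arrays were left out. At an unadjusted p under 0.05, 3 of 11 were lower and 0 higher, against 6.07% and 6.92% of all genes.

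Type VI collagen has alpha 1, alpha 2 and alpha 3 chains that assemble together, and in skin and muscle it links cells and basement membranes to the surrounding fibrils. Its genes Col6a1 and Col6a2 are neighbours on chromosome 10. Col6a2 was at 10.21, 9.69, 9.55, 9.48 and 9.53 with stretch and at 11.03, 10.79, 10.75 and 10.59 without. All stretched arrays lay below all non-stretched ones, and stretch replicate 1 was closest to them. Col6a2 fell by 1.10 on the log2 scale (standard error 0.19, 95% confidence interval -1.51 to -0.69), which is 2.14-fold lower, with limma adjusted p = 0.044. That call was close to the threshold. It was lost after subtraction of array medians (adjusted p = 0.0508) and when stretch replicate 2, 4 or 5 or any non-stretched array was left out (adjusted p between 0.0503 and 0.148), while the log2 change stayed between -1.23 and -1.02.

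Col6a1 was at 9.79, 9.26, 9.11, 9.12 and 8.77 with stretch and at 9.66, 9.67, 9.81 and 9.93 without. Stretch replicate 1 lay within the non-stretched range and the other 4 below it, and the gene was 1.47-fold lower (log2 change -0.56, 95% confidence interval -0.997 to -0.117, limma adjusted p = 0.27). Col6a3, which encodes the largest chain, was at 12.84, 11.57, 10.93, 11.33 and 10.53 with stretch and at 11.49, 11.58, 11.77 and 12.01 without. Its stretched range of 2.31 was the widest of all 42 collagens, with replicate 1 above every other array, and its log2 change was -0.28 (95% confidence interval -1.10 to 0.55). That value rested on single arrays: it was -0.63 without stretch replicate 1 (unadjusted p = 0.023, limma adjusted p = 0.31) and -0.05 without stretch replicate 5. The change of Col6a2 exceeded that of Col6a1 by 0.54 (exact permutation p = 0.024, adjusted p = 0.083) and that of Col6a3 by 0.82 (exact permutation p = 0.071, adjusted p = 0.17). Without stretch replicate 1 the log2 change of Col6a2 minus that of Col6a3 was -0.60 (exact permutation p = 0.14, adjusted p = 0.33). The changes of Col6a1 and Col6a3 differed by 0.28 (exact permutation p = 0.36, adjusted p = 0.51), and none of these differences passed after adjustment.

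The start windows of the neighbours Col6a1 and Col6a2 are shown side by side, since both genes were lower. Both lie on the minus strand of chromosome 10 in GRCm38.p6, Col6a1 at chr10:76726025-76726294 and Col6a2 at chr10:76623611-76623880, with 250 bases before and 20 after the start.
Col6a1: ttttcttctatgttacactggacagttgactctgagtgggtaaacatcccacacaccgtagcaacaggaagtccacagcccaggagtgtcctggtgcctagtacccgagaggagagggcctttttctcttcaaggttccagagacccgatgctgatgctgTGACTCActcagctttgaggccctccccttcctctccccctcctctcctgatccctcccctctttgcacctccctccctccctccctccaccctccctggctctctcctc
Col6a2: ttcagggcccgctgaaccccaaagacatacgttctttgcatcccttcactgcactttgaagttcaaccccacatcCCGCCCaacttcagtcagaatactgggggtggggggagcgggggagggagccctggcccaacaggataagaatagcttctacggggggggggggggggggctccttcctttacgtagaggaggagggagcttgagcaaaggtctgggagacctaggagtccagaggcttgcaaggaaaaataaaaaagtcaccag
Capitals mark the same motifs as for Col1a2. Col6a1 held TGANTCA 90 bases before the start, the only one of the 37 collagen windows with this motif, and Col6a2 held GGGCGG on the opposite strand (CCGCCC) 175 bases before it. The table lists another Col6a2 start further inside the gene, whose window, not shown, held GGAATG. Neither printed match was shared by the other printed window.

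The other type VI genes form a row of neighbours on chromosome 9. Col6a6 was at 4.42, 3.57, 3.42, 4.22 and 4.34 with stretch and at 4.83, 4.16, 4.94 and 5.05 without, which is a log2 change of -0.75, with limma adjusted p = 0.25. Its mean lay in the lower part of the table, at percentile 32.0 of all genes, so no fold is given. Its neighbours Col6a5 and Col6a4 had log2 changes of 0.24 and -0.02.

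Type IV collagen has 6 chain genes, arranged as 3 pairs of neighbours. The alpha 1 and alpha 2 chains form the network of nearly all basement membranes, and their genes are transcribed away from each other from a shared start region. Col4a1 was at 8.08, 7.54, 7.86, 8.15 and 7.44 with stretch and at 6.68, 7.13, 6.89 and 7.35 without. Col4a2 was at 9.58, 9.42, 8.79, 9.87 and 9.07 with stretch and at 8.30, 8.55, 8.20 and 8.97 without. For Col4a1 every stretched array was above every non-stretched array, whereas for Col4a2 stretch replicate 3 lay below no-stretch replicate 4. In both genes stretch replicate 4 was the highest array and no-stretch replicate 4 the highest of its group.

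Col4a1 was 1.75-fold higher (log2 change 0.80, standard error 0.20, 95% confidence interval 0.35 to 1.25, limma adjusted p = 0.135). Col4a2 was 1.79-fold higher (log2 change 0.84, standard error 0.24, 95% confidence interval 0.31 to 1.37, limma adjusted p = 0.177). Neither passed over all genes. Their changes differed by 0.04 (exact permutation p = 0.90), and the standard deviation of their difference across arrays was 0.37 with stretch and 0.16 without. The other type IV chains, which occur in fewer basement membranes, lay low in the table, with means between percentiles 27.8 and 34.2 of all genes. Col4a3 and Col4a4 had log2 changes of -0.34 and -0.21, Col4a5 and Col4a6 of -0.04 and 0.24, and none of these passed either threshold.

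The start region of the Col4a1 and Col4a2 pair is shown because both genes were higher by nearly the same amount. In the RefSeq table of GRCm38.p6 their starts lie 21 bases apart on chromosome 8, and the stretch that holds both starts is chr8:11312805-11312826. It is written on the plus strand, which is that of Col4a2, beside the 30 bases around the CCAAT of the Col4a2 window at chr8:11312761-11312790.
Between starts: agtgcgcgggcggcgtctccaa
CCAAT region: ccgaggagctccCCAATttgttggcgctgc
Capitals mark CCAAT alone, which begins 32 bases before the start of Col4a2 and lies inside the Col4a1 gene. The stretch between the starts also holds GGGCGG, left here in small letters. The start windows of both genes held CCAAT and GGGCGG.

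Col18a1 encodes a proteoglycan collagen of epithelial and vessel basement membranes whose end fragment is endostatin. It was at 12.28, 12.13, 11.24, 11.85 and 11.37 with stretch and at 10.87, 11.22, 11.28 and 11.47 without. Stretch replicates 1, 2 and 4 lay above all non-stretched arrays and 3 and 5 within their range, and the gene was 1.48-fold higher (log2 change 0.56, 95% confidence interval 0.04 to 1.09, limma adjusted p = 0.35). Col15a1, the related gene of muscle and vessel basement membranes, had a log2 change of 0.04. Of the 8 basement membrane genes measured, 5 were positive, with a median of 0.14. At an unadjusted p under 0.05, 3 of 8 were higher and 0 lower, against 6.92% and 6.07% of all genes; they are the same 3 genes as in the whole family.

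Col17a1 encodes a transmembrane collagen of the hemidesmosome, which anchors basal keratinocytes to the basement membrane. It was at 12.68, 12.97, 12.88, 12.47 and 13.06 with stretch and at 12.66, 12.55, 11.92 and 12.48 without. Stretch replicate 4 lay below 3 of the non-stretched arrays, and the log2 change of 0.41 did not pass (95% confidence interval -0.02 to 0.83, limma adjusted p = 0.41); it was 0.245 without no-stretch replicate 3. Markers of basal keratinocytes moved in both directions beside it, with 4 of 7 positive, mean deviations of -0.36 to 0.36 with stretch and -0.25 to 0.14 without. Their part in the value of Col17a1 was not tested.

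**Figure D2:**
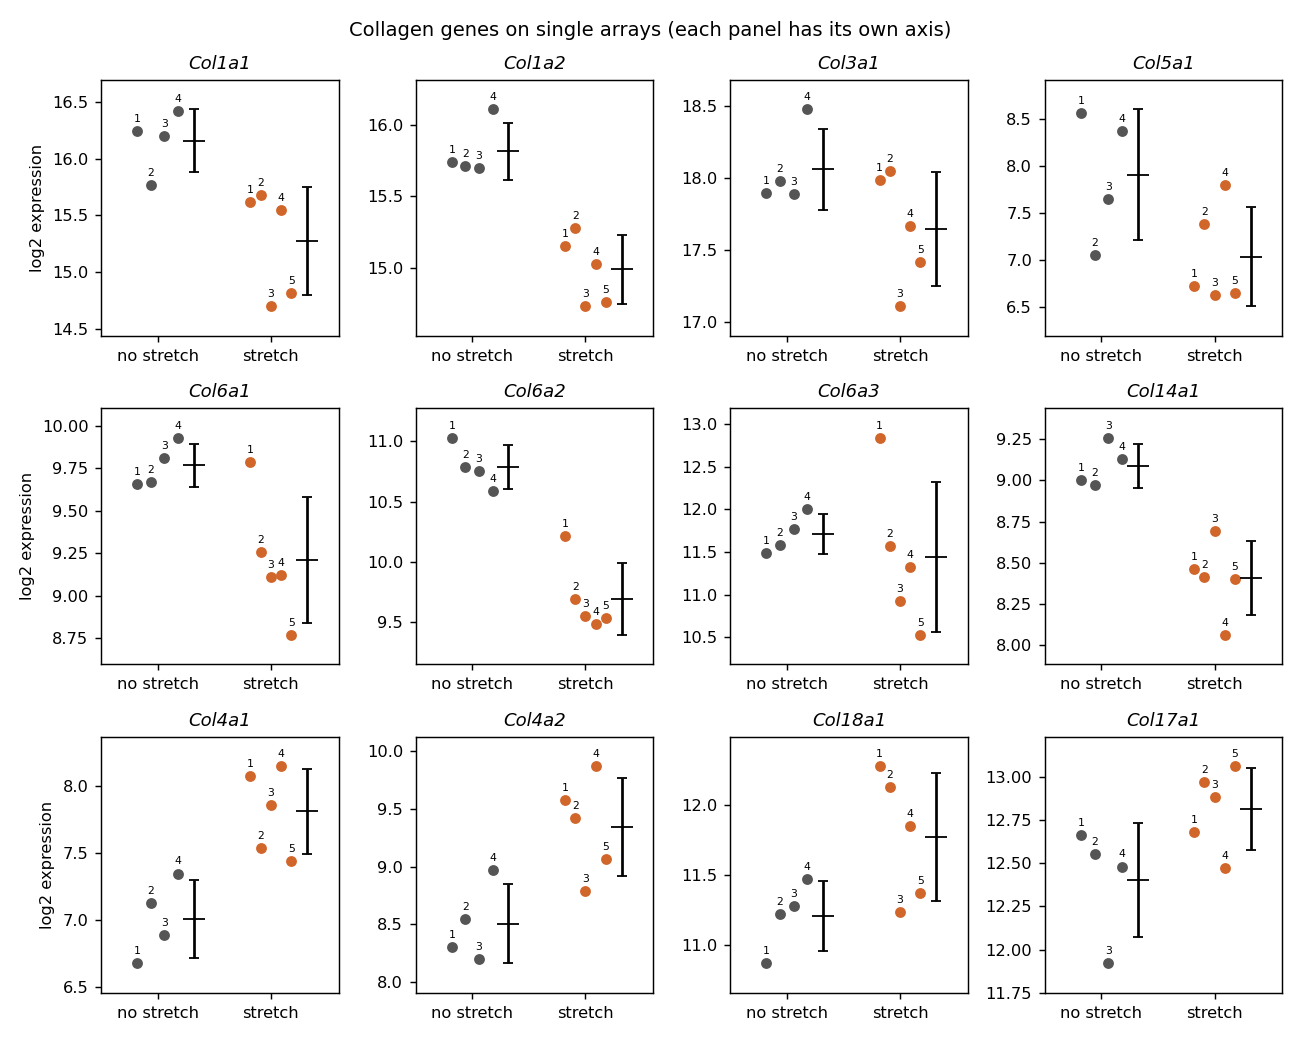
Log2 expression (y axis, a separate scale in each panel) of 12 collagen genes on the 4 no-stretch and 5 stretch arrays; numbers are replicates and bars are the mean and SD of a group. In Col1a1, Col1a2, Col6a2 and Col14a1 all stretched arrays lie below the non-stretched ones, and in Col4a1 all lie above.

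Among fibril-associated collagens, Col14a1 encodes collagen XIV, which binds the surface of type I fibrils and is found in tendon and dermis. It was at 8.46, 8.41, 8.69, 8.06 and 8.40 with stretch and at 9.0, 8.97, 9.26 and 9.13 without, and the groups did not overlap. It was 1.61-fold lower (log2 change -0.69, standard error 0.16, 95% confidence interval -1.05 to -0.33, limma adjusted p = 0.11). Groups that did not overlap were thus found for 4 lower collagens (Col1a1, Col1a2, Col6a2 and Col14a1) and 1 higher (Col4a1), 9.52% and 2.38% of the 42, against 2.15% and 2.38% of all genes (4.54% in either direction).

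The other genes of this class were weaker. Col16a1, whose product associates with fibrils and fibrillin microfibrils, was at 10.37, 10.62, 9.39, 9.74 and 9.27 with stretch and between 10.12 and 10.40 without. Stretch replicate 2 was above all non-stretched arrays, and replicates 3, 4 and 5 were below all of them (log2 change -0.33, limma adjusted p = 0.65). When single arrays were left out, its log2 change lay between -0.51 and -0.17. Col9a3 had a log2 change of -0.40 and Col20a1 of 0.31 (limma adjusted p = 0.58 and 0.64). The first was -0.19 without no-stretch replicate 3 and -0.24 without stretch replicate 3, and the other 0.09 without stretch replicate 2. Col9a1, Col9a2, Col19a1 and Col22a1 lay between -0.20 and 0.07. In all, 6 of 8 were negative, with a median of -0.18, and 1 of 8 was lower at an unadjusted p under 0.05 (6.07% of all genes). Without stretch replicate 5 that median was -0.04.

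The remaining 8 genes of the other class, outside types VI and XVII, were those of short-chain, transmembrane and unclassified collagens, and none had an unadjusted p under 0.05. Col13a1, a transmembrane collagen of focal adhesions, had the largest change among them, at -0.35 (limma adjusted p = 0.49). Col8a1, Col8a2, Col10a1, Col23a1, Col25a1, Col26a1 and Col28a1 lay between -0.21 and 0.17. Across the 15 genes of this class 11 were negative, with a median of -0.10.

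Single arrays carried part of the spread within the stretched group. Stretch replicate 3 had the lowest value of its group in 20 of the 42 collagens and replicate 5 in 11. Replicates 1 and 2 had the highest in 12 and 15. The mean deviation of fibrillar collagens from the non-stretched mean was -0.23, -0.06, -0.64, -0.02 and -0.51 on stretch replicates 1 to 5 and lay between -0.17 and 0.18 without stretch. The mean deviation of basement membrane collagens was 0.54, 0.31, -0.05, 0.32 and 0.06, against -0.20 to 0.14. Both class means overlapped between the groups.

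Markers of cell types were compared between the groups in the same way. Of 9 fibroblast markers measured, 7 were negative, with mean deviations of -0.82 to -0.62 with stretch and -0.11 to 0.21 without, and 5 were lower at an unadjusted p under 0.05 (Dpt, Lum, Clec3b, Dpp4 and Pi16), where 6.07% of all genes were. The general fibroblast genes Dcn and Vim had log2 changes of -0.34 and 0.04. In whole skin, fewer cells of a type and less RNA per cell cannot be told apart. All 4 leukocyte markers were positive, with mean deviations of 0.53 to 1.6 against -0.89 to 0.56, and 6 of 7 adipocyte markers were negative, at -1.26 to -0.36 against -0.36 to 0.32. The 8 smooth muscle and pericyte markers were split, 4 positive and 4 negative, at -0.37 to 0.26 against -0.1 to 0.12. Of the 8 blood endothelial markers, 6 were positive, at -0.23 to 0.64 against -0.47 to 0.24. The negative ones were Tek, an endothelial receptor kinase, which was 1.79-fold lower without overlap of the groups (limma adjusted p = 0.078), and Vwf (log2 change -0.28). At an unadjusted p under 0.05 Tek was lower and Kdr higher (log2 change 0.78), where 6.07% and 6.92% of all genes were. Without overlap, 2.15% of all genes were lower. Hair follicle markers were negative in 8 of 8 (-1.31 to -0.82 against -0.65 to 0.54), but not to the same degree. At an unadjusted p under 0.05, 4 were lower, where 6.07% of all genes were. Krt27, Lgr5, Krt75 and Msx2 had log2 changes between -0.206 and -0.055. Only 1 of the 8 had a mean above the median of all genes. Lhx2 and Krt73 fell over all genes (limma adjusted p = 0.029 and 0.044), where 0.164% of all genes passed as lower. When single arrays were left out, Lhx2 lost its call in 6 of 9 fits (adjusted p up to 0.117) and Krt73 in 7 of 9 (up to 0.143). The skeletal muscle list had 3 of 10 genes positive, with stretch replicate 1 at a mean deviation of -1.42 and the other stretched arrays between 0.03 and 0.60. Schwann cell markers were negative in 3 of 4 (-0.46 to -0.17 against -0.07 to 0.06). Chondrocyte markers were negative in 5 of 6 (-0.47 to -0.09 against -0.13 to 0.17). The part of these markers in the collagen values was not tested.

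**Figure D3:**
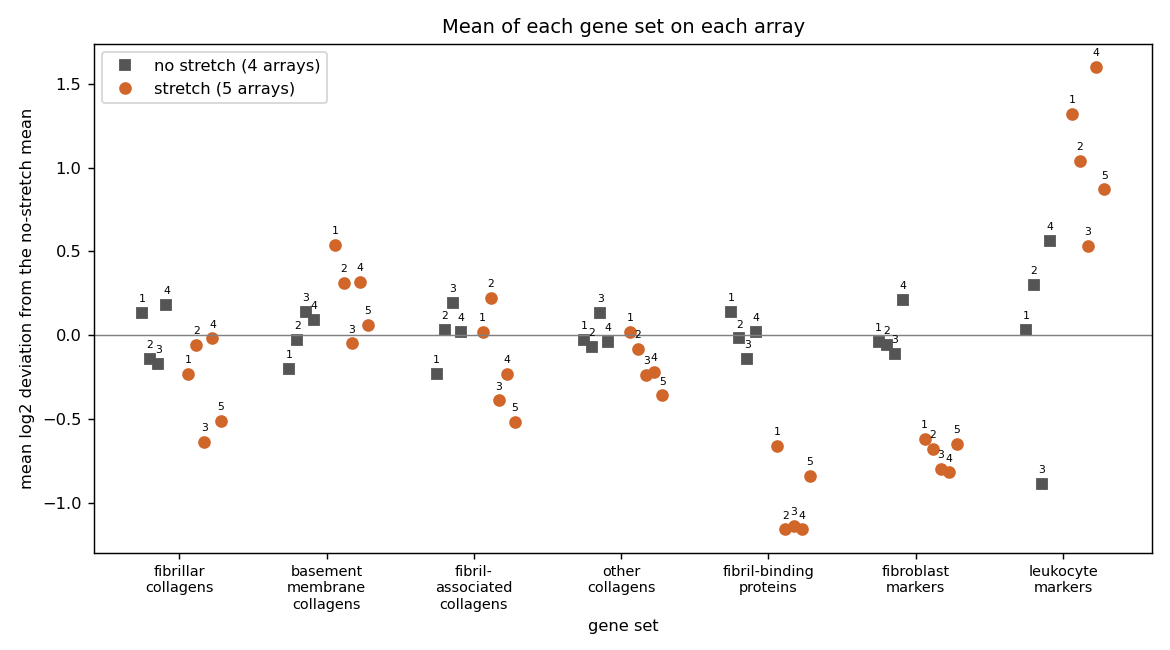
Mean log2 deviation from the non-stretched mean (y axis) of the 4 collagen classes and of 3 gene lists (x axis) on each array; squares are no-stretch and circles stretch arrays, numbered by replicate. Fibrillar collagens overlap between the groups, with stretch replicates 3 and 5 lowest, while fibril-binding proteins and fibroblast markers are lower on all stretched arrays.

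Proteins that bind collagen fibrils include small proteoglycans, which space and order the fibrils. All 14 measured genes were negative, with a median log2 change of -1.03 against -0.003 over all genes. Of these, 2 passed as lower over all genes, where 0.164% of all genes did, and 9 were lower at an unadjusted p under 0.05, where 6.07% of all genes were. Tnxb, tenascin X, which links fibrils and whose loss loosens skin, was at 9.20, 9.34, 8.88, 9.51 and 10.05 with stretch and at 11.21, 10.95, 11.18 and 11.19 without. All stretched arrays were below all others, and it fell by 1.74 on the log2 scale (limma adjusted p = 0.021). Dpt, dermatopontin, which speeds fibril formation, fell by 2.30 (limma adjusted p = 0.025). Both calls were lost on omission of stretch replicate 2 and of no-stretch replicates 1 and 3, and that of Dpt also on omission of no-stretch replicate 2 (adjusted p between 0.065 and 0.092). Kera, keratocan, was between 2.88 and 3.70 with stretch and between 4.11 and 4.73 without (limma adjusted p = 0.062), low in the table, so that no fold is given. The list shares Dcn, Lum and Dpt with the fibroblast markers, of which 7 of 9 were negative, and Sparc with the basement membrane partners.

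Collagen chains are hydroxylated and folded in the endoplasmic reticulum. Of 18 genes for these steps, 10 were positive and 8 negative, with a median of 0.07 that was -0.02 in the lowest fit without 1 array, and none passed over all genes. P4hb, a subunit of prolyl 4-hydroxylase and a disulfide isomerase, was 1.52-fold higher, and Plod1, a lysyl hydroxylase, 1.63-fold higher (limma adjusted p = 0.22 and 0.25). These were the only genes of the list with an unadjusted p under 0.05, where 6.92% of all genes were higher. Colgalt1, which adds galactose to hydroxylysine, was 1.21-fold lower, with adjusted p = 0.60. Serpinh1, the collagen chaperone HSP47, chosen after its values were seen, differed by 0.03 on the log2 scale (95% confidence interval -0.57 to 0.63).

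Of 9 genes that process the propeptides, 7 were negative, with a median of -0.39, and 4 had an unadjusted p under 0.05, all lower (Pcolce2, Pcolce, Tll2 and Adamts14), where 6.07% of all genes were. Pcolce2 and Pcolce encode enhancers of procollagen C-proteinase. Pcolce2 was 2.38-fold lower (limma adjusted p = 0.084), at 8.96, 8.56, 9.56, 9.17 and 9.59 with stretch and at 10.30, 10.10, 11.16 and 10.12 without, and Pcolce was 1.58-fold lower (adjusted p = 0.18). The proteinase gene Tll2 was 1.40-fold lower (adjusted p = 0.25). The groups did not overlap for these 3 genes, and 2.15% of all genes were lower without overlap.

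Of 5 genes of cross-linking enzymes, 3 were positive and 2 negative (Loxl1 and Loxl4, log2 changes -0.35 and -0.23). Their median was 0.89, the value of Lox, and 0.54 with both arrays of lowest weight left out. Tgm2, a transglutaminase, was 2.0-fold higher and did not overlap between groups (limma adjusted p = 0.17). Among all genes, 2.38% were higher without overlap. The lysyl oxidase gene Loxl3 was 2.04-fold higher (adjusted p = 0.37). Tgm2 and Loxl3 were the 2 genes of the list higher at an unadjusted p under 0.05, where 6.92% of all genes were. That count fell to 1 when any array other than stretch replicate 3 and no-stretch replicate 4 was left out. Lox was at 14.00, 14.05, 11.92, 14.60 and 13.85 with stretch and at 13.10, 12.08, 11.99 and 14.01 without, so that stretch replicate 3 was the lowest of all arrays (log2 change 0.89, adjusted p = 0.52).

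Among 9 genes of collagen degradation, 6 were positive, with a median of 1.22, and 5 matrix metalloproteinase genes had an unadjusted p under 0.05 (Mmp13, Mmp1b, Mmp9, Mmp8 and Mmp1a). All 5 were higher, against 6.92% of all genes, and did not overlap between the groups, against 2.38% of all genes. For Mmp1a the groups barely separated, with the lowest stretched array at 4.31 and the highest non-stretched array at 4.29. Its mean was low in the table, at percentile 33.4 of all genes. Mmp13, a collagenase that cuts fibrillar collagen, was at 11.13, 10.15, 10.96, 11.09 and 10.43 with stretch and at 8.72, 8.79, 7.27 and 9.20 without, a rise of 2.25 on the log2 scale (limma adjusted p = 0.032). Among fits that omitted 1 array, that call held with stretch replicate 3 or no-stretch replicate 4 omitted and was lost in the other 7 (adjusted p between 0.051 and 0.12). The gelatinase gene Mmp9 was 3.34-fold higher (adjusted p = 0.070). Mmp1b was at 6.89, 5.22, 5.05, 6.17 and 5.54 with stretch and at 2.15, 4.06, 2.52 and 4.06 without (adjusted p = 0.053). Its non-stretched values were low in the table and were not shown to be above background, so no fold is given. Mmp8 is a neutrophil collagenase and stands in both lists, and 6 of 7 neutrophil markers were positive, at mean deviations of 0.91 to 2.36 with stretch and -0.63 to 0.41 without; their part in these values was not tested. Ctsk, cathepsin K of lysosomes, was 1.80-fold lower (limma unadjusted p = 0.029, adjusted p = 0.32). It was the only gene of the list lower at an unadjusted p under 0.05, where 6.07% of all genes were. That count lay between 0 and 2 when single arrays were left out.

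Collagen receptors moved both ways. Ddr2, a receptor kinase for fibrillar collagen on fibroblasts, was 1.72-fold lower (limma adjusted p = 0.15), and Mrc2, the receptor that takes up cut collagen, 1.38-fold lower (adjusted p = 0.29). Itga2, the alpha chain of a collagen-binding integrin of keratinocytes and platelets, was 1.59-fold higher (adjusted p = 0.20). The list had 3 positive and 5 negative of 8 genes, with a median of -0.20, which was -0.09 without no-stretch replicate 1 and -0.096 without stretch replicate 4. None passed over all genes.

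Transforming growth factor beta is a main inducer of collagen synthesis in fibroblasts. Of 12 genes of its signalling list, 5 were positive and 7 negative, with a median of -0.22 that was -0.05 without stretch replicate 3. Ltbp1, which stores the latent factor in the matrix, was 1.72-fold lower and Tgfb2 1.54-fold lower (limma adjusted p = 0.14 and 0.27). Smad7, an inhibitor of the pathway, was 1.64-fold higher, and the ligand gene Tgfb1 was 1.77-fold higher (adjusted p = 0.16 and 0.29). The groups overlapped for Tgfb1 and not for Ltbp1, Smad7 and Tgfb2. Without overlap, 2.15% of all genes were lower and 2.38% higher. Ccn2, a target of the pathway chosen after its values were seen, had a log2 change of 0.20 (adjusted p = 0.76).

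Laminins, nidogens and perlecan build basement membranes with collagen IV. Of 15 genes of these partners, 10 were negative, with a median of -0.29, which was -0.12 without stretch replicate 3. Nid1, nidogen 1, which bridges laminin and collagen IV, was at 10.76, 10.84, 10.55, 11.07 and 10.94 with stretch and at 12.24, 12.21, 12.31 and 12.34 without. It fell by 1.44 on the log2 scale (limma adjusted p = 0.0087), and kept an adjusted p under 0.05 without any 1 array. Lama2, the laminin chain of muscle and nerve, was 2.06-fold lower, and Lama3, the chain of the epidermal basement membrane, 2.33-fold higher (adjusted p = 0.11 and 0.084). The groups did not overlap for 3 lower genes (Nid1, Lama2 and Lamb2) and 1 higher (Lama3), against 2.15% and 2.38% of all genes. At an unadjusted p under 0.05, 5 genes were lower (Nid1, Lama2, Lamb2, Lamc1 and Sparc) and 2 higher (Lama3 and Lamb3), against 6.07% and 6.92% of all genes. Without no-stretch replicate 1, 3 were lower.

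**Figure D4:**
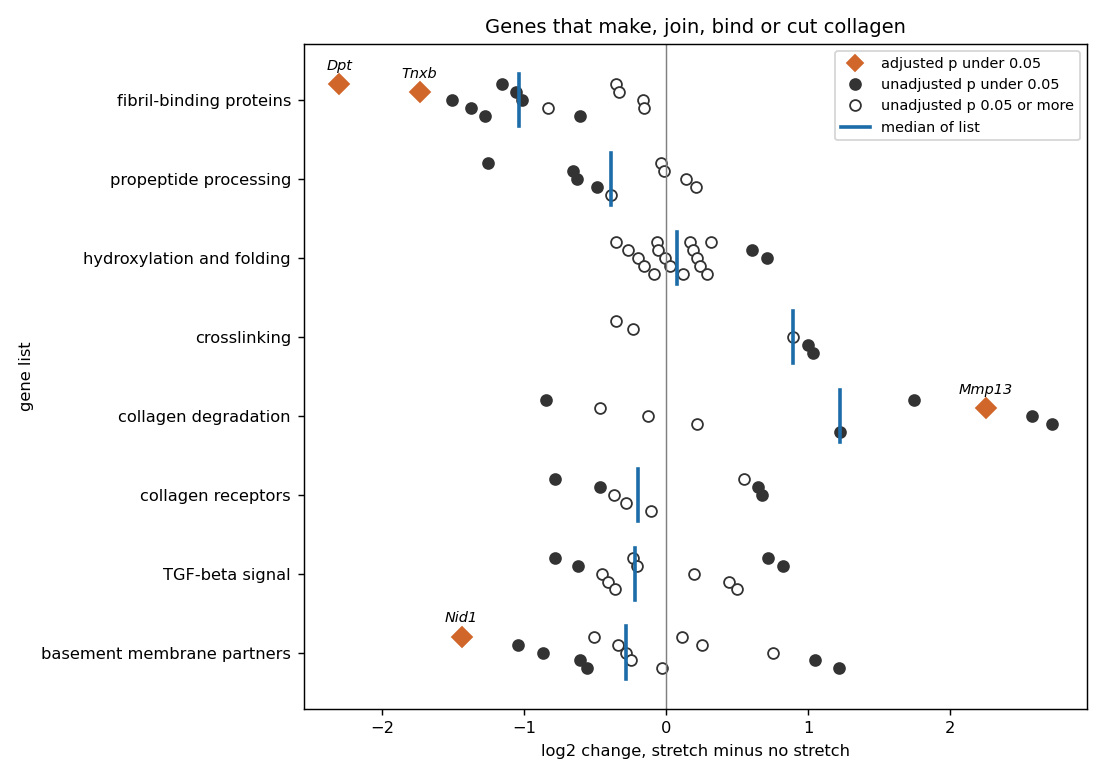
Log2 change (stretch minus no stretch, x axis) of the genes of 8 lists (y axis); each point is a gene, filled where the unadjusted p is under 0.05, diamonds mark genes past the adjusted threshold and bars the median of a list. The fibril-binding list lies wholly to the left of 0, and the degradation list has its median at 1.22.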

How the data were processed

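The deposited table held log2 expression values, which the authors made with RMA and Transcriptome Analysis Console, per the submitters' processing notes; versions are not stated there. As a method, RMA corrects background, normalizes quantiles and summarizes probes on the log2 scale; the settings used are not stated. No genome build or filter is given in the sources used here. Depth does not apply to arrays, whose number limits the precision (median standard error over collagens 0.22). Of 22206 features, 19572 had 1 gene symbol in the platform annotation and 2634 were unnamed here; the feature with the highest mean over all 9 arrays stood for a gene (19505 genes). Each collagen had 1 feature, and its symbol matched the RefSeq gene of its Entrez identifier in 42 of 42 cases.

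Groups came from the sample titles. Stretch minus no stretch was fitted over all genes by limma 3.58.1 (lmFit, then eBayes) under R 4.3.3, with two-sided p-values adjusted by Benjamini-Hochberg. A fold is the log2 change raised back to the linear scale. Pairs of chains were compared by exact permutation of the per-array difference over 126 splits (smallest possible p 0.0079); these 7 pairs were chosen after values were seen. The fit was also run on simulated data with independent noise, which does not bear on the calls reported here. Collagen classes, gene lists and alternatives were chosen with earlier results of these data known.

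Named collagens were the chains of types I, III, V and XVII, the first 3 of type VI and the first 2 of type IV, any past the threshold and up to 4 of each class with the smallest p; other collagens appear by value or range. Named list genes were those past the threshold, the 3 of smallest p in the partner lists, and members of small counts. The 2 cell type markers of highest mean were named for basal keratinocytes and fibroblasts only. Sequences came from the RefSeq start windows of GRCm38.p6. Alternatives covered renormalization, a filter on low genes, averaged features, trended robust variances, array weights, a replicate block and omitted arrays.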

Additional observations from a re-analysis of the deposited data

Results flagged for a closer look

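Within groups of 4 or 5 arrays, 10 of 132 gene and group combinations had 1 array set far apart from the others by Dixon's criterion, which chance meets in about 1 of 20 groups. Among the fibrillar collagens, no-stretch replicate 4 stood high for Col1a2 (16.11, others 15.7 to 15.74) and for Col3a1 (18.48, others 17.89 to 17.98), and stretch replicate 3 stood low for Col2a1 (3.66, others 4.22 to 4.35). In Col6a2 stretch replicate 1 stood high (10.21, others 9.48 to 9.69), and the log2 change without it was -1.23. Col20a1 was high in stretch replicate 2 (8.43, others 7.14 to 7.49), Col4a4 in no-stretch replicate 3 (5.33, others 4.35 to 4.41) and Col26a1 in no-stretch replicate 2 (3.24, others 3.14 to 3.15). Among partner genes, Lox was low in stretch replicate 3 (11.92, others 13.85 to 14.6), Tnxb was low in no-stretch replicate 2 (10.95, others 11.18 to 11.21) and Tgfb2 was high in no-stretch replicate 1 (8.61, others 8.1 to 8.14).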

How the results depend on the processing

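The number of arrays limits these results: with 5 against 4 the median standard error over collagens was 0.22 on the log2 scale. The count of collagens past the adjusted threshold, 1 in the fit reported, was 0 after subtraction of array medians, 2 with array weights (Col6a2 and Col1a2), 2 at an adjusted p under 0.1, and between 0 and 1 when single arrays were left out. Quantile normalization, omission of genes under the 25th percentile, averaged features, trended robust variances and omission of both arrays of lowest weight gave 1, Col6a2. The samples share only a replicate number: deviations of same-numbered arrays correlated at -0.062, -0.018, 0.064 and 0.343. With the replicate block the count stayed at 1, with 6 collagens lower and 4 higher at an unadjusted p under 0.05, while calls over all genes went from 48 to 221.

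Over all alternatives 6 to 8 collagens were lower and 2 to 4 higher at an unadjusted p under 0.05. The median log2 change kept its sign over all collagens (-0.147 to -0.041) and in each class, from -0.288 to -0.045 for fibrillar, 0.083 to 0.255 for basement membrane, -0.286 to -0.043 for fibril-associated and -0.174 to -0.025 for other collagens. Of 323 values of 19 named collagens under 17 alternatives, 312 kept their sign. The other 11 belonged to Col5a2 and Col5a3. Part of this was fixed in advance. The filter on low genes, averaged features and trended robust variances leave the log2 change of a collagen as it was. The replicate block repeats the log2 changes of the fit without stretch replicate 5.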
